A study of Mus musculus with 3 samples.

Results

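Tumor-infiltrating pmel T cells with the highest summed share of UMIs from *Ikzf2*, *Klre1*, *Klrh1*, *Styk1* and *Itgb3* were described across 3 single-cell RNA libraries. A UMI is the tag of 1 captured transcript. Cells were kept with 2000 to 120000 UMIs and at most 20% of UMIs from mitochondrial genes. The members were the 10% of kept cells with the highest score, pooled over the libraries, which was 2845 of 28452 kept cells out of 31026 deposited. Because these 5 genes chose the members, their own rise in the members is a description and was not tested.

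The cells were CD8+ T cells of TCR-transgenic mice, whose pmel receptor reads a peptide of the melanoma protein gp100. In every group they were preconditioned with that peptide and a cytokine, transferred into irradiated C57BL/6 mice bearing B16F10 melanomas, and followed by a low-dose cytokine regimen. The sIL-2 group had an engineered IL-2 throughout, and the IL-2/21-Trikine group had a single molecule that joins the receptors of IL-2 and IL-21. The sIL-2 + IL-21 group had both cytokines in preconditioning, and the methods give sIL-2 alone to the mice that received such cells. On day 18 after tumor injection the tumors were taken, and live Thy1.1+CD8+ cells were sorted. There was 1 library per treatment from 1 experiment, and how many mice went into a library was not given in the sources used here. Differences between libraries therefore have no replicate check, and their intervals cover counting error only.

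Helios, the product of *Ikzf2*, is an Ikaros-family zinc finger factor known from regulatory T cells and from T cells with innate features. *Klre1* and *Klrh1* encode lectin-like receptors of the natural killer gene complex, receptors best known from NK cells and also found on activated CD8+ T cells. *Styk1* encodes a membrane-anchored kinase-like protein of NK cells and *Itgb3* the integrin beta 3 chain.

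The starts of *Klre1* and *Klrh1*, and of *Klra5*, the most abundant lectin-like receptor gene called higher outside the score, are shown because they are receptor genes of 1 gene complex on which the score and the receptor results turn. Each line gives the 250 bases before the first listed start, from RefSeq (GRCm38.p6), 5′ to 3′ on the strand of the gene. *Klre1* is at chr6:129577963-129578212 on the plus strand, *Klrh1* at chr6:129784271-129784520 and *Klra5* at chr6:129913225-129913474, both on the minus strand. Capitals mark a match to TGTGGT, the core bound by RUNX factors, or to GGAAAA, the core bound by NFAT factors, searched on both strands.
Klre1: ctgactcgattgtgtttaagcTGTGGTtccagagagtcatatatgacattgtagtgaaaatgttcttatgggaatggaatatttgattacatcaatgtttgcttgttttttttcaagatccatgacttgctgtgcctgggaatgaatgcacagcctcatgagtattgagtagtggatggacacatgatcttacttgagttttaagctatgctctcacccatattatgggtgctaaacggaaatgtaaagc
Klrh1: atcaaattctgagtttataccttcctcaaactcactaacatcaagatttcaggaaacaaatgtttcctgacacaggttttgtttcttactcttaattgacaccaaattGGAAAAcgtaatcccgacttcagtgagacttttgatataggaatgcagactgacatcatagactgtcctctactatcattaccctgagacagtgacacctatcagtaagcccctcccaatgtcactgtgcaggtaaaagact
Klra5: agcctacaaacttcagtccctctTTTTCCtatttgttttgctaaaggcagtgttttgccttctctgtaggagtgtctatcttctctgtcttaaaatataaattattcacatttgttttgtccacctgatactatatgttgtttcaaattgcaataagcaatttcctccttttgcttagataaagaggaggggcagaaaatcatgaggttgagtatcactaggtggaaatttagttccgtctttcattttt
*Klre1* held TGTGGT, which starts 229 bases before its start and is in 14.2% of the 27025 promoters of the same length. *Klrh1* and *Klra5* each held GGAAAA or its complement, starting 142 and 227 bases before the start, and this core is in 20.6% of promoters. The T-box core GGTGTGA, in 3.31% of promoters, was in none of the 3 windows. The start of *Fcer1g*, an adaptor gene described below, was searched too, at chr1:171234350-171234599 on the minus strand, and held none of the 3 cores. The matches did not overlap, and they describe these windows only.

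The cut lay at a score of 852 CPM, the 5 genes' UMIs scaled to a common total. The last cell inside had 11 score UMIs of 12912 and the first cell outside had 28 of 32867. The median member had 16 score UMIs. Members and other cells differed in depth, and the direction depended on the library. Median UMIs were 15061.5 in members and 13030.5 in other cells with sIL-2. They were 12415 and 11490 with IL-2/21-Trikine. With sIL-2 + IL-21 the order turned, with 11383 in members and 15093 in other cells. A UMI of *Cd3d*, *Cd3e* or *Cd3g* was found in 99.4% to 99.9% of the members of each library. Such UMIs were also common in a cluster led by myeloid genes, described below, so they do not mark a T cell alone. The libraries shared 25, 17 and 30 kept cell barcodes pair by pair, a small number beside the 7494, 11524 and 9434 kept cells.

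*Ikzf2* gave 53.4% of the members' score UMIs and *Klre1* 29.1%, so the score was mostly a score of these genes. *Styk1* gave 7.39%, *Itgb3* 6.85% and *Klrh1* 3.32%. The genes were rarely alone. Of the 2845 members, 336 had UMIs of 1 score gene, 850 of 2, 1047 of 3, 575 of 4 and 37 of all 5. Among the other cells, 7421 of 25607 had none. *Klrh1* stood apart in its distribution, with a UMI in 5.55% of members and yet a mean of 43.3 CPM over all of them.

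Free RNA can leave single UMIs in cells that do not express a gene. A cluster of 89 cells led by the myeloid genes *Cxcl2*, *Il1b* and *Lyz2*, at a median of 15056 UMIs, held an *Ikzf2* UMI in 31.5% of cells and a *Klre1* UMI in 34.8%. These cells also held *Cd3e* UMIs in 69.7%, at 433 CPM against 636 CPM in the other cells outside the cluster. Droplets that also held a T cell were not told apart from free RNA, so these cells give no level of free RNA alone. The shares in the other cells outside that cluster were 28.6% and 44.6% at a median of 12905 UMIs, so a single *Ikzf2* UMI there was not read as expression. In members the shares were 82.4% and 77.3%, at a median of 12702 UMIs. Members were chosen on these UMIs, so their shares had to be high and were not read against this level.

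Since the UMIs that chose a cell overstate its level, each UMI was put at random into 1 of 2 parts. Cells were chosen on the first part and read in the second. In the second part, *Ikzf2* was 614 CPM in the chosen cells and 83.7 CPM in the others. *Klre1* was 326 and 88.7 CPM. *Klrh1* was 41.0 and 2.16 CPM. The order of chosen over other cells held for each of the 5 genes in each library. *Ikzf2* was 6.61 times as high with sIL-2, 7.44 times with IL-2/21-Trikine and 8.22 times with sIL-2 + IL-21. The smallest ratio of the 15 was that of *Itgb3* with IL-2/21-Trikine, at 1.81. Of the 2845 cells chosen on the first part, 1659 were also in the top 10% by the second, or 58.3%.

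**Figure D1:**
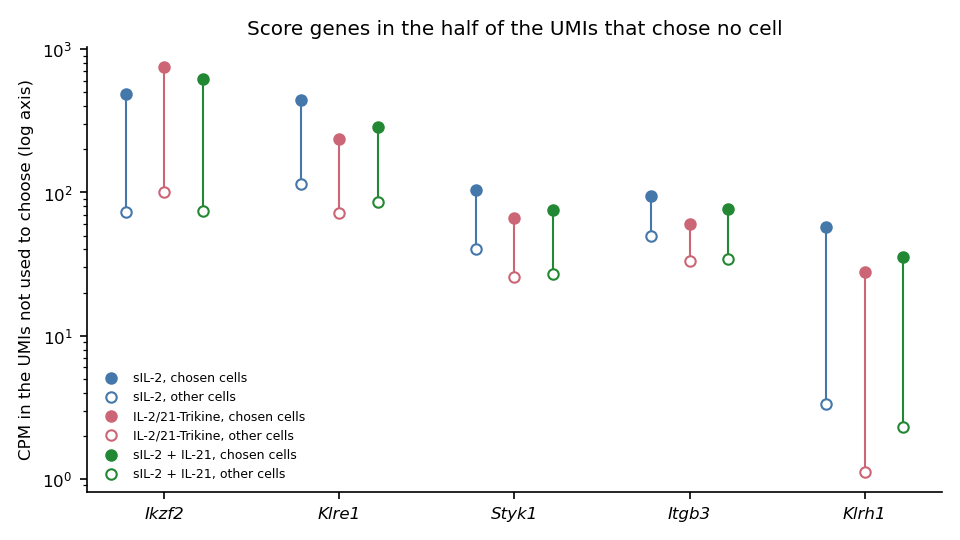
CPM (log axis) of the 5 score genes in the part of the UMIs that did not choose the cells, for chosen cells (filled) and other cells (open) of each library. Every filled point lies above its open point, with the widest gap for *Klrh1* and the narrowest for *Itgb3*.

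Each score gene was also read in cells chosen by the other 4. The fold change was fitted with edgeR over 6 sums, 1 over members and 1 over other cells in each library, with the library as a term. It was 1.62 (log2, SE 0.27) for *Klrh1*, 0.97 (SE 0.07) for *Ikzf2* and 0.87 (SE 0.06) for *Klre1*. It was 0.73 (SE 0.11) for *Styk1* and 0.71 (SE 0.06) for *Itgb3*. The 5 genes were put together with earlier results of these data known, so these values describe the score and are no independent support for it.

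Members made up 12.1% of kept cells with sIL-2 (906 of 7494, exact 95% interval 11.4% to 12.8%). They made up 9.55% with IL-2/21-Trikine (1100 of 11524, 9.01% to 10.1%) and 8.89% with sIL-2 + IL-21 (839 of 9434, 8.33% to 9.49%). The sIL-2 share lay above the other intervals, and those of the other two overlapped. The order changed with the genes in the score and the cells kept. Without *Ikzf2* the shares were 15.7%, 6.75% and 9.40%, and without *Klre1* they were 10.0%, 10.7% and 9.07%. Without cycling cells they were 11.2%, 8.24% and 11.2%. With cells kept from 500 UMIs the order stayed, at 10.9%, 10.8% and 8.20%.

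The libraries differed in which gene led a member. *Ikzf2* had the most score UMIs in 41.7% of sIL-2 members (378 of 906, 38.5% to 45.0%), in 71.0% of IL-2/21-Trikine members (781 of 1100, 68.2% to 73.7%) and in 60.0% of sIL-2 + IL-21 members (503 of 839, 56.5% to 63.3%). *Klre1* led in 41.4% of sIL-2 members, 19.5% of IL-2/21-Trikine members and 25.3% of sIL-2 + IL-21 members. Members were chosen on the sum of the genes, so in them more of 1 gene goes with less of another, and these shares are a description. Over all kept cells, *Ikzf2* stood at 121, 156 and 110 CPM in sIL-2, then IL-2/21-Trikine, then sIL-2 + IL-21. *Klre1* stood at 150.03, 85.9 and 100.2 CPM there.

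Apart from the score genes, 634 of 8924 genes tested were called in members against other cells, at an adjusted p under 0.05 (edgeR quasi-likelihood test, Benjamini-Hochberg) and an absolute log2 fold change of at least 0.5. The 234 higher genes were 2.62% of those tested and the 400 lower genes 4.48%. Of the genes tested, 48 reached 5 CPM only in members and 15 only in other cells, so these had to differ. Of the 8344 genes at 5 CPM or more in all 6 sums, 158 were higher (1.89%) and 349 lower (4.18%). The p-values measure the spread between 3 libraries and not between mice. The median over all genes tested was 0.01 (log2). Scaling by library totals in place of TMM factors moved that median to 0.07 and split the calls into 339 higher and 328 lower. Without the library as a term, 178 genes were called. Neither *Klra5* nor *Klri2* nor any of the 5 genes called from the inhibitory receptor list below was among them. Some killer lectin-like receptor genes and some genes of the inhibitory receptor list were higher in members. Most of the cytokine and chemokine genes tested were lower.

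Part of the killer lectin-like receptor family was higher in members. Of 25 listed, 10 were tested, and 7 of these were at 5 CPM or more in all 6 sums. Of the 7, *Klra5* and *Klri2* were called higher and none lower, against 1.89% of all genes at that level, with a median of 0.18 (log2). *Klra5*, an inhibitory receptor of the Ly49 family, was at 310 CPM in members and 120 CPM in other cells with sIL-2. It was at 99.4 and 34.3 CPM with IL-2/21-Trikine, and at 331 and 163 CPM with sIL-2 + IL-21. Members of each library stood above the other cells of that library, and the fold change was 1.25 (log2, SE 0.10, adjusted p = 0.000416). *Klrb1c*, which encodes the NK1.1 receptor, was at 12.1 to 27.8 CPM in members and 3.46 to 7.10 CPM in other cells. *Klrb1f*, of the same subfamily, was at 3.93, 15.3 and 16.4 CPM in members and 1.89, 6.08 and 5.72 CPM in other cells. *Klrb1b* was at 7.15, 8.66 and 13.6 CPM in members and 2.14, 1.72 and 3.35 CPM in other cells. *Klrb1b* passed the filter through the members alone. *Klrb1c*, *Klrb1f* and *Klrb1b* were called higher but were not at 5 CPM or more in all 6 sums, so their calls were not counted among the 7. *Klri2*, whose product pairs with KLRE1, was at 14.6, 25.3 and 19.5 CPM in members and 7.66, 12.8 and 10.1 CPM in other cells (0.90, SE 0.08, adjusted p = 0.000457). Both called genes lie near a score gene on chromosome 6. *Klri2* is next to *Klrh1*, and 1 protein-coding gene lies between *Klrh1* and *Klra5*. The part of this position in the calls was not tested.

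The abundant receptors of the group did not pass. *Klrd1*, the CD94 chain, was at 1682, 1180 and 1483 CPM in members and 1240, 969 and 930 CPM in other cells, a difference of 0.41 (log2, adjusted p = 0.0121) under the fold asked for. *Klrk1*, which encodes NKG2D, and *Klrc1*, which encodes NKG2A, had differences of 0.18 and 0.16 (adjusted p = 0.177 and 0.161). Genes of the Ly49 group (*Klra*) are close copies of each other, and counting can split or lose their reads, so the values of *Klra5* and *Klra8* are uncertain.

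Adaptors and receptors of innate signaling gave a mixed list, with a median of 0.21 (log2). Of 12 tested genes, 2 were higher and 1 lower, against 2.62% and 4.48% of all genes. Without the sIL-2 + IL-21 library 2 were lower, with a median of 0.07, and in cells thinned to 5000 UMIs 2 were lower. Without the IL-2/21-Trikine library 3 were higher. *Fcer1g*, the ITAM adaptor of Fc and NK receptors, was at 383 CPM in members and 148 CPM in other cells with sIL-2. It was at 111 and 51.0 CPM with IL-2/21-Trikine and at 347 and 178 CPM with sIL-2 + IL-21. The fold change was 1.10 (log2, SE 0.10, adjusted p = 0.000474), higher in 3 of 3 libraries. *Cd244a*, the SLAM-family receptor 2B4, was higher by 0.98 (SE 0.13, adjusted p = 0.00173). *Crtam*, a receptor of activated cytotoxic cells, fell by 1.40 on the log2 scale (SE 0.16, adjusted p = 0.00103). The partner adaptor *Tyrobp* stayed at 4.57 to 9.41 CPM in members and *Syk* at 0.0644 to 0.537 CPM.

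The label innate-like was checked against lineage markers. Some lineage markers were near 0 in members and others were not. *Ncr1*, which marks NK cells, was at 0.134 to 0.761 CPM in members, and *Zbtb16*, the factor PLZF of NKT cells, at 2.49 to 3.09 CPM in members and 2.32 to 2.89 CPM in other cells. The 13 CD8+ T cell markers summed to 17757, 17075 and 16709 CPM in members and 18288, 16969 and 14997 CPM in other cells, and none of the 13 was called. *Trbv14* gave 97.7% to 98.3% of *Trbv* UMIs in members and 98.0% to 98.3% in other cells. Of 9 NK and ILC1 markers, 4 were tested and 2 were called higher, *Klrb1c* and *Kit*, neither at 5 CPM or more in all sums. *Gzma*, the 1 at that level in all sums, was not called. *Kit*, a stem cell factor receptor, was at 11.5 to 23.7 CPM in members and 4.77 to 9.01 CPM in other cells (1.36, adjusted p = 0.000326). *Trdc*, the constant segment of the TCR delta chain, was at 55.6 to 61.2 CPM in members and 35.4 to 53.9 CPM in other cells (0.28, adjusted p = 0.0879). *Eomes*, a T-box factor of NK and memory cells, was at 14.0, 7.46 and 4.66 CPM in members and 11.5, 4.71 and 2.51 CPM in other cells. Its difference of 0.496 (adjusted p = 0.0258) was short of the fold asked for. Members thus kept the transcripts of the transferred CD8+ T cells and had more of 2 of the 7 killer lectin-like receptor genes counted. The abundant ones, *Klrd1*, *Klrk1* and *Klrc1*, did not pass, so the cells are called by their genes here.

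Summed markers of other cell types were low against those of T cells and went either way. The 15 myeloid markers summed to 67.2, 95.9 and 90.9 CPM in members and 72.9, 109 and 84.3 CPM in other cells, with *Cd74* the most abundant. *Adgre1* had no UMI in members. *Cxcl2* was at 0.387, 0 and 0.38 CPM in members and 12.9, 7.59 and 5.19 CPM in other cells, and *Cd68* at 16.2, 7.39 and 13.8 CPM against 9.01, 5.20 and 7.84 CPM. *Il1b* was at 0 to 0.0951 CPM and *Lyz2* at 0.0951 to 0.58 CPM in members. The 5 erythroid markers summed to 0.902, 0 and 0.57 CPM in members, and to 78.3 CPM in the other cells with sIL-2. B cell markers summed to 23.4 to 48.8 CPM in members and 10.5 to 30.2 CPM in other cells, nearly all from *Ighm*, with *Ms4a1* and *Jchain* at 0. Melanoma markers summed to 2.13, 3.09 and 1.62 CPM in members and 6.98, 9.60 and 2.39 CPM in other cells, lower in members of each library. Those of gamma-delta T cells summed to 72.4 to 113 CPM against 49.9 to 91.3 CPM in other cells, with *Trdc* the most abundant and *Trgc2* called higher by 0.54. The part of these in the results was not tested. An alternative left out cells with more than a single UMI of myeloid, B cell, melanoma and erythroid markers together, or with no CD3 UMI. It did not use the gamma-delta markers and kept 19885 of the 28452 cells. It gave 845 calls, among them 215 of the 234 higher and 386 of the 400 lower genes.

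The inhibitory receptor list also held genes whose products are not inhibitory receptors, such as *Cd38* and *Cd200r4*. Of its 12 genes tested, 5 were higher and none lower, against 2.62% and 4.48% of all genes, with a median of 0.41 (log2). In some settings 1 was lower: without the sIL-2 + IL-21 library, in cells thinned to 5000 UMIs, without cycling cells, without cells of other types, with each score gene divided by its mean and against cells with no score UMI. *Pdcd1*, which encodes PD-1, was at 299 CPM in members and 156 CPM in other cells with sIL-2. It was at 193 and 93.4 CPM with IL-2/21-Trikine and at 279 and 165 CPM with sIL-2 + IL-21. The fold change was 0.86 (log2, SE 0.08, adjusted p = 0.000514). *Cd200r4* and *Cd200r1*, neighbouring genes of the CD200 receptor family, were higher by 0.87 and 0.84 (adjusted p = 0.00149 and 0.00953), and *Cd38* by 0.66. *Cd244a*, described above, was the other of the 5 and was counted in both lists. *Havcr2*, which encodes TIM-3, and *Lag3* had differences of -0.09 and 0.02 (adjusted p = 0.592 and 0.861). *Ctla4* differed by 0.39, which did not reach the fold asked for. *Cd160* differed by -0.43, also short of that fold.

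*Tox*, a transcription factor of chronically stimulated T cells, was at 46.7, 84.97 and 29.6 CPM in members and 31.01, 41.5 and 11.8 CPM in other cells. It was the only gene called higher of 16 innate and effector transcription factors tested, at 0.91 (log2, SE 0.11, adjusted p = 0.00163). *Irf4*, a factor induced by receptor signaling, fell by 0.70 on the log2 scale and *Zeb2*, a factor of terminal effectors, fell by 0.51. The median of that list was 0.01. None of 13 other genes often seen with Helios in regulatory T cells was called, and their median was 0.02. Some settings gave calls. Without the sIL-2 + IL-21 library 1 was higher and 1 lower, and in members led by *Klre1* 1 was higher and 3 lower. Against cells with no score UMI 3 were higher and 2 lower.

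Among genes with a mean of at least 20 CPM, the highest fold changes were those of *Dscam* and *Igsf5*. *Dscam*, a large cell adhesion molecule best known from neurons, was at 101 CPM in members and 25.2 CPM in other cells with sIL-2. It was at 86.6 and 24.0 CPM with IL-2/21-Trikine and at 134 and 41.5 CPM with sIL-2 + IL-21. Its fold change of 1.79 (log2, SE 0.08, adjusted p = 7.7e-05) was the largest among these genes. *Igsf5*, a junctional adhesion molecule gene on the same chromosome 16, was higher by 1.27 (SE 0.11, adjusted p = 0.000474). *B3galt5* lies next to *Igsf5*, and *Bace2* next to *Dscam*. *Bace2* was higher by 0.73 (SE 0.12, adjusted p = 0.00413). *B3galt5* passed the filter through members alone, at 5.86, 6.11 and 8.75 CPM against 2.31, 2.06 and 4.68 CPM in other cells. The genes *Itgb2l* and *Pcp4* between them were under 0.2 CPM in members.

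The other genes of the 15 highest not yet described were *St6galnac3*, a sialyltransferase (1.15), *Wdr95* (1.14), *Dapk2*, a death-associated kinase (0.99), *Chn2*, a Rac GTPase-activating protein (0.98), *Filip1* (0.97), the unnamed gene *Gm36723* (0.97), *Jdp2*, a repressor of AP-1 (0.94), *Samd3* (0.91) and *Rab27b*, a GTPase of vesicle release (0.89), as log2 fold changes. Their adjusted p-values ran from 0.000326 to 0.0059. Each was higher in members of all 3 libraries, which the rule for choosing these genes required. With sIL-2, *Rab27b* was at 45.3 CPM in members against 32.2 CPM. With sIL-2 + IL-21, *Samd3* was at 24.1 CPM in members against 7.94 CPM.

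**Figure D2:**
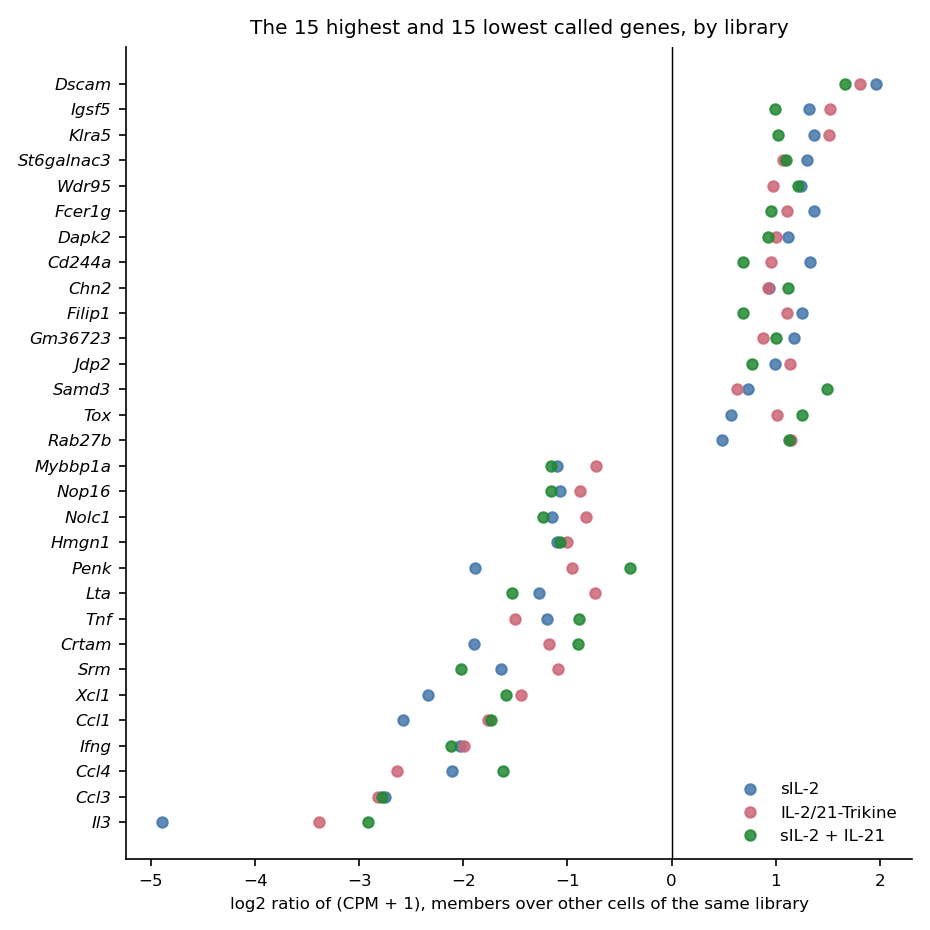
log2 ratio of CPM + 1 in members over other cells of the same library, for the 15 called genes with the highest and the 15 with the lowest fold change in members among genes of at least 20 CPM. Genes were chosen with 1 direction in all libraries, so points of all 3 lie on the same side of 0. *Dscam* is highest and *Il3* lowest.

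Of 13 genes of integrins and other adhesion molecules tested, 2 were higher, *Itga1* and *Itgax*, against 2.62% of all genes, and the median was 0.15 (log2). The count was 4 higher and 1 lower without *Ikzf2* in the score, none without *Klre1*, and 1 higher without the sIL-2 or the sIL-2 + IL-21 library. *Itga1*, the collagen-binding integrin chain of resident T cells, was at 94.7, 42.5 and 52.0 CPM in members and 59.8, 31.5 and 24.8 CPM in other cells (0.66, SE 0.11, adjusted p = 0.00495). Of 18 granule and killing genes, 2 were higher and none lower, against 2.62% and 4.48%. Of the 15 at 5 CPM or more in all 6 sums, 1 was higher, against 1.89% of all genes at that level. The count over the 18 genes depended on the libraries and on the choice of members. It was 1 higher and 2 lower without the sIL-2 library, and 6 higher and 1 lower without the sIL-2 + IL-21 library. It was 8 higher without *Ikzf2* in the score, 10 higher in members led by *Klre1*, and 1 higher and 2 lower in members led by *Ikzf2*. None was called without the cells of cluster 5, described below, and 5 were higher and 1 lower in cells thinned to 5000 UMIs. *Tnfsf10*, which encodes TRAIL, was at 76.7, 85.2 and 82.0 CPM in members and 51.4, 56.4 and 49.9 CPM in other cells (0.57, SE 0.06, adjusted p = 0.00104). *Gzmk*, under 5 CPM in 1 sum, was also called, but its value was -0.22 without *Klre1* in the score and -0.34 in the members led by *Ikzf2*. *Gzma* was at 5468, 1475 and 6101 CPM in members and 3716, 1060 and 4637 CPM in other cells (0.42, adjusted p = 0.00514), and *Gzmb* at 3142, 2387 and 3305 CPM against 3498, 2811 and 5448 CPM (-0.43, adjusted p = 0.0287). Neither reached the fold asked for.

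Cytokine and chemokine genes were the lowest group in members. Of 14 tested, 12 were lower and none higher, against 4.48% of all genes, with a median of -1.97 (log2). Of the 11 at 5 CPM or more in all 6 sums, 9 were lower, with a median of -1.30. *Ccl3*, an inflammatory chemokine, was at 194 CPM in members and 1315 CPM in other cells with sIL-2. It was at 134 and 951 CPM with IL-2/21-Trikine and at 135 and 932 CPM with sIL-2 + IL-21. It fell by 2.85 on the log2 scale (SE 0.07, adjusted p = 2e-06). *Ifng* was at 234, 166 and 160 CPM in members and 963, 666 and 699 CPM in other cells. It fell by 2.11 on the log2 scale (SE 0.07, adjusted p = 9.87e-06), and was lower in 3 of 3 libraries. *Xcl1*, a chemokine that attracts cross-presenting dendritic cells, was at 936, 1679 and 1011 CPM in members and 4736, 4573 and 3043 CPM in other cells. *Ccl4*, *Ccl1*, *Ccl9*, *Il3*, *Tnf*, *Csf2*, *Ccl5*, *Il2* and *Penk* were also lower. *Csf1* and *Areg* were tested and not called (0.30 and -0.43).

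Genes induced by antigen receptor signaling were lower in part, and as a sum differed little with sIL-2 + IL-21. The summed list was at 2916, 2759 and 3405 CPM in members and 4467, 3506 and 3470 CPM in other cells. Of 11 tested, 4 were lower, *Nr4a1*, *Egr1*, *Egr2* and *Egr3*, and 1 higher, *Spry2*, a feedback inhibitor of MAPK signaling, against 4.48% and 2.62% of all genes. *Nr4a1* was at 153, 90.1 and 128 CPM in members and 373, 187 and 157 CPM in other cells (-0.94, SE 0.16, adjusted p = 0.00541). *Egr1* was lower with sIL-2 and IL-2/21-Trikine, at 37.4 against 70.8 CPM and 24.0 against 47.6 CPM, but not with sIL-2 + IL-21, at 75.7 against 73.9 CPM. Of 14 genes known to be induced by tissue dissociation, 6 were lower, against 4.48% of all genes, among them *Fos*, *Atf3* and *Zfp36*. With sIL-2 + IL-21, *Fos* and *Zfp36* differed little, at 117 against 120 CPM and 44.2 against 46.7 CPM. The part of dissociation in these values was not tested. *Myc* fell by 1.03 on the log2 scale (adjusted p = 0.0009). *Srm*, spermidine synthase, changed by -1.65, and *Nolc1*, *Nop16* and *Mybbp1a*, whose products act in the nucleolus, by -1.13, -1.11 and -1.06. *Lta* and *Hmgn1* were the other genes among the 15 lowest, at -1.26 and -1.16.

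None of 15 S phase genes, 16 G2/M genes or 11 interferon-stimulated genes was called, with medians of -0.20, 0.19 and -0.09 (log2). Of the interferon-stimulated genes, 4 were lower without the sIL-2 + IL-21 library, 5 against cells with no score UMI, 3 in cells thinned to 5000 UMIs and 3 without cycling cells. The cell cycle counts depended on how members were chosen, and also on the tool and the libraries. With members chosen within bins of total UMIs 4 G2/M genes were higher, and by means per cell with limma 3. Without the sIL-2 + IL-21 library 1 G2/M gene was higher, and without the IL-2/21-Trikine library 2 S phase genes were lower. Without *Ikzf2* in the score, 14 S phase and 5 G2/M genes were lower. With each score gene divided by its mean, 13 S phase and 2 G2/M genes were lower. In members led by *Klre1*, 10 S phase genes were lower, and in members led by *Ikzf2*, 6 G2/M genes were higher. Against cells with no score UMI, all 16 G2/M genes and 1 S phase gene were higher. Of 15 stem and memory genes, the 13 at 5 CPM or more in all sums were not called, with a median of -0.10. *Slamf6*, not at that level in all sums, was called lower (-1.07, SE 0.12, adjusted p = 0.00111). It was at 3.87, 6.78 and 3.80 CPM in members and 9.22, 13.6 and 6.17 CPM in other cells. *Tcf7* was at 41.9, 57.1 and 24.1 CPM in members and 62.8, 60.1 and 21.5 CPM in other cells (-0.24, adjusted p = 0.166). Of 13 genes of the IL-2 and STAT5 response, *Ccnd2* was lower and the rest were not called, but 4 were lower without the sIL-2 + IL-21 library, 2 without the sIL-2 library and 4 in members led by *Klre1*. Of 9 tested STAT5 targets that the study took from the literature, none of the 8 at 5 CPM or more in all sums was called, and the other was *Klrb1c*, described above. With *Klrb1c* among the 9, 1 was higher, which became 2 higher without the IL-2/21-Trikine library, 1 higher and 1 lower without the sIL-2 library, and 4 higher both without *Ikzf2* in the score and in members led by *Klre1*. Nuclear-retained RNAs were at 4142, 3327 and 3241 CPM in members and 4300, 3490 and 2352 CPM in other cells. With sIL-2 + IL-21 their level was higher in members than in the other cells there. Neither of the 2 tested genes at 5 CPM or more in all sums was called. *Mir17hg*, not at that level in all sums, was called lower (-0.86, SE 0.13, adjusted p = 0.00297).

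Gene length moved with the fold change. Over 8771 of the 8924 tested genes with a RefSeq span, Spearman's rho of log2 fold change and length was 0.22, across genes of the same libraries. In 3 groups of equal size by length, the median log2 fold change was -0.05 in the shortest and 0.07 in the longest. The median span was 34913 bases in higher genes, 14026.5 bases in lower genes and 23932 bases in all. Counts included intronic reads, and the part of length in the calls was not tested.

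Several of the genes above changed stepwise with the score below the cut, and others did not. Other cells were divided into those with no score UMI and 3 groups by score. *Fcer1g* went from 35.6 CPM in sIL-2 cells with no score UMI through 74.1, 147 and 268 CPM in the groups to 383 CPM in members. With IL-2/21-Trikine it went through 18.1, 32.6, 63.2, 91.8 and 111 CPM, and with sIL-2 + IL-21 through 53.9, 120, 215, 304 and 347 CPM. *Ifng* went the other way, from 1744 to 234 CPM with sIL-2, from 1137 to 166 CPM with IL-2/21-Trikine and from 1509 to 160 CPM with sIL-2 + IL-21. *Tox* was not graded with sIL-2, at 35.3 CPM in cells with no score UMI, 27.7, 31.1 and 31.1 CPM in the groups and 46.7 CPM in members. With sIL-2 + IL-21 it was at 16.4, 8.52, 12.2, 13.5 and 29.6 CPM, and with IL-2/21-Trikine at 35.1, 39.6, 42.9, 48.6 and 84.97 CPM. *Gzmb* was lower in members than in the group just below in every library. Cells with no score UMI were shallower than the rest, at medians of 9689, 8354 and 8776 UMIs. In cells thinned to 5000 UMIs, 167 of the 234 higher and 292 of the 400 lower genes were called again.

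**Figure D3:**
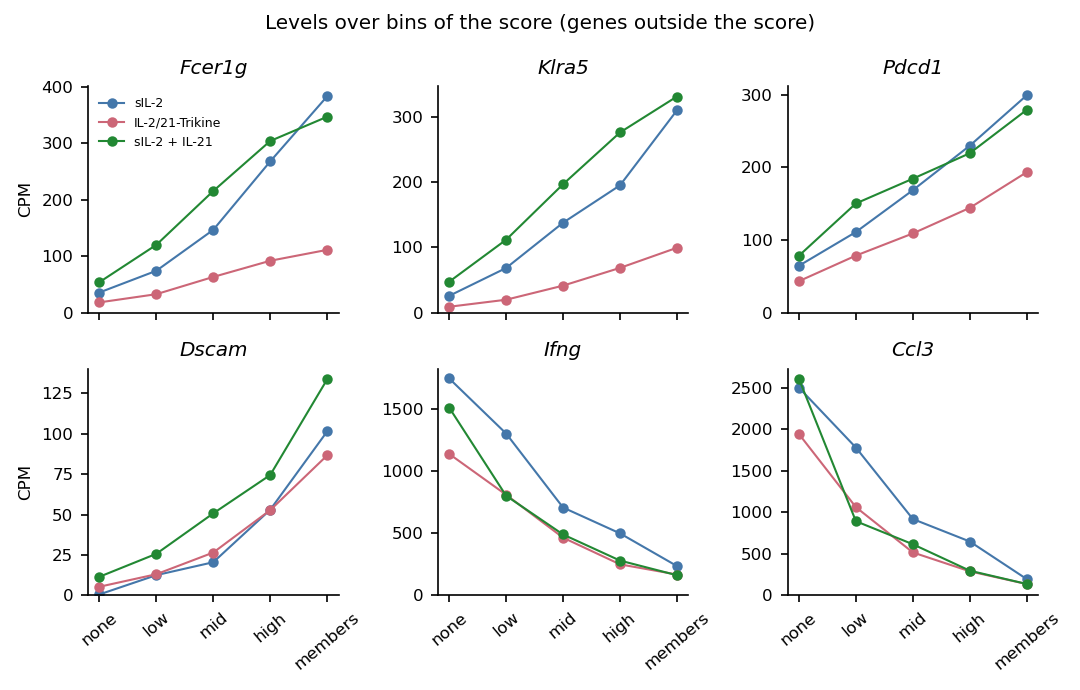
CPM of 6 genes outside the score in cells with no score UMI, in low, middle and high groups of the other cells by score, and in members, for each library. *Fcer1g*, *Klra5*, *Pdcd1* and *Dscam* rise and *Ifng* and *Ccl3* fall from left to right in every library.

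Members were spread over most clusters of the kept cells. Leiden clustering on the 2000 most variable genes, without the score genes and receptor segments, gave 13 clusters. Among the 20 nearest neighbours of a member, 22.9% were members, and among those of other cells 7.59%, where members are 10.0% of all cells. Cluster 4, led by *Tcp11l2*, *Mxd4* and *Rab27b*, held 704 of the 2845 members, at 22.7% of its cells. Cluster 7, led by *Gzmg*, *Gzmf*, *Gzmd* and *Fcer1g*, held 474 at 17.9%. In cluster 7 the shares differed between libraries, at 35.4% with sIL-2. They were 17.8% with IL-2/21-Trikine but 12.1% with sIL-2 + IL-21. Cycling clusters held members too, with 15.4% in cluster 10, led by *Cdc20* and *Ccnb2*, and 13.1% in cluster 8, led by *Mcm2*.

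Cluster 13, the 89 cells led by myeloid genes, held no member. Among the other clusters, cluster 5, led by *Il2*, *Il3* and *Ccl3*, had the lowest share, with 19 members in 2989 cells, or 0.636%. Cluster 12 had the highest share, with 127 of 382 cells or 33.2%, but its median was 3326.5 UMIs and its leading genes included *Rad51b*, *Lars2* and *Neat1*. *Ikzf2* stood at 615 CPM there and *Klre1* at 62.8 CPM. Leaving out cluster 12 gave 238 higher and 394 lower genes, 222 and 384 of them shared with the 234 and 400.

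**Figure D4:**
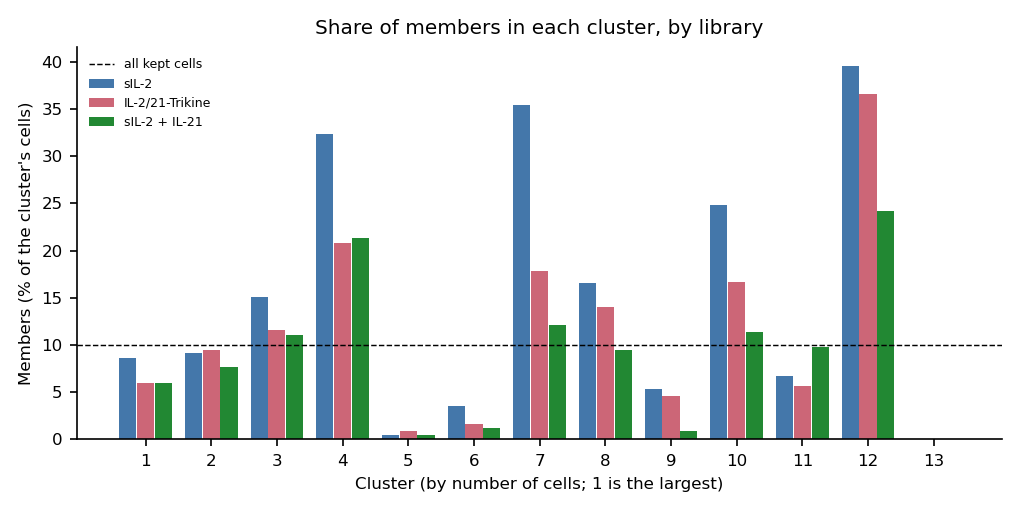
Share of members among the cells of each cluster (percent, from 0) for each library, with the share in all kept cells as a dashed line. Clusters 4, 7 and 12 lie highest with sIL-2, and clusters 5, 6 and 13 lowest with sIL-2.

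The receptor genes and the cytokine genes behaved differently inside clusters. In the 10 clusters with at least 50 members, *Fcer1g*, *Klra5*, *Pdcd1*, *Cd244a*, *Tox*, *Dscam* and *Igsf5* were each higher in members than in other cells of the same cluster in 10 of 10. The median log2 ratio over clusters was 1.03 for *Fcer1g*, 0.97 for *Klra5*, 0.70 for *Pdcd1* and 1.65 for *Dscam*. *Klrb1c* was higher in 9 of 10. Summed cytokine and chemokine levels were higher in members in 1 of 10, with a median of -0.48 (log2), and *Ifng* in 3 of 10, with a median of -0.44. *Ccl3* was higher in 3 of 10 and *Xcl1* in 5 of 10, with medians of -0.74 and -0.27. These are descriptions with no test. Without the cells of cluster 5, 159 genes were higher and 176 lower, and 10 of 12 cytokine and chemokine genes tested were lower with a median of -0.97 in place of -1.97. Of the 400 lower genes, 170 were called again, and of the 234 higher genes 155.

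Members led by *Ikzf2* and members led by *Klre1* were set side by side as a description. Genes were ranked by their median ratio among those of at least 20 CPM with 1 direction in all libraries, a rule chosen after the data were seen. Members led by *Ikzf2* were higher in *Cd83*, *Zbtb46*, *Ccr7*, *Ccl1*, *Rrm2* and *Brca1*. *Ccr7* was at 287, 550 and 259 CPM in them and 131, 227 and 170 CPM in members led by *Klre1*. Members led by *Klre1* were higher in *Gzmk*, *Gzmd*, *Gzma*, *Ccl5*, *Ly6c2*, *Spp1* and *Klra5*. *Gzma* was at 7399, 2343 and 8066 CPM in them and 4052, 1286 and 5635 CPM in members led by *Ikzf2*. *Ccl5* was at 1624, 773 and 1030 CPM in them against 719, 297 and 427 CPM. *Fcer1g* was above the other cells in both, at 509, 243 and 451 CPM in members led by *Klre1* and 314, 79.7 and 325 CPM in those led by *Ikzf2*. *Pdcd1* was at 288, 222 and 257 CPM and 315, 186 and 293 CPM, close in both.

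Between libraries, few genes differed in members by the fold asked for, an absolute log2 ratio of at least 1 with at least 50 CPM in either. Members of IL-2/21-Trikine against members of sIL-2 had 5 higher and 20 lower of 3233 genes, or 0.155% and 0.619%. Against members of sIL-2 + IL-21 they had 2 higher and 20 lower of 3146 genes, or 0.0636% and 0.636%. Members of sIL-2 against members of sIL-2 + IL-21 had 1 higher and 4 lower of 3162 genes, or 0.0316% and 0.127%. With 1 library each these are values of these libraries, with no test. Of 30 such ratios followed, 18 moved past their counting interval in cells thinned to 5000 UMIs and none changed direction.

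*Gzma*, *Gzmd*, *Gzme* and *Gzmf* were past the fold, lower in IL-2/21-Trikine members than in members of either other library. The abundant granzyme genes *Gzmb* and *Gzmc* were not, at 2387 CPM against 3142 and 3305 CPM and at 2685 CPM against 3662 and 4219 CPM. *Gzma* was at 1475 CPM there against 5468 CPM in sIL-2 members, a log2 ratio of -1.89 (-1.91 to -1.87), and against 6101 CPM in sIL-2 + IL-21 members, a ratio of -2.05. *Gzmf* was at 260 CPM against 930 and 1316 CPM. *Havcr2* was at 49.4 CPM against 175 and 134 CPM. *Fcer1g* and *Klra5* were also lower, with ratios of -1.79 (-1.86 to -1.71) and -1.64 (-1.73 to -1.56) to sIL-2. In the other cells, the ratios to sIL-2 were -1.81 for *Gzma*, -1.54 for *Fcer1g* and -1.80 for *Klra5*. They were -1.41 for *Gzmf* and -1.28 for *Havcr2*, against -1.84 and -1.82 in members. Whether members and other cells differed in them was not tested.

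*Ccr7*, the lymph node homing receptor, was at 472 CPM in IL-2/21-Trikine members against 210 CPM in sIL-2 members (log2 ratio 1.17, 1.11 to 1.23) and 242 CPM in sIL-2 + IL-21 members (0.96). *Plk2*, *Nrn1*, *Asap1* and *Cd74* were the other genes past the fold against sIL-2. *Tox* was at 84.97 CPM against 29.6 CPM in sIL-2 + IL-21 members (1.52, 1.34 to 1.71) and *Tcf7* at 57.1 against 24.1 CPM (1.24, 1.04 to 1.45). All 15 S phase genes and all 16 G2/M genes were higher in IL-2/21-Trikine members than in sIL-2 members. The median log2 ratios were 0.77 and 0.55, and 0.71 and 0.51 in the other cells. Against sIL-2 + IL-21 members, 15 S phase and 15 G2/M genes were higher, with medians of 0.49 and 0.28. The other cells of that pair went the other way, with medians of -0.14 and -0.29. Whether members and other cells differed in this was not tested.

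Members of sIL-2 and of sIL-2 + IL-21 were the closest pair by the counts above. *Fos* was at 39.8 CPM in sIL-2 members and 117 CPM in sIL-2 + IL-21 members (log2 ratio -1.56, -1.70 to -1.42), while the other cells had 108 and 120 CPM. *Egr1* was at 37.4 and 75.7 CPM in members and 70.8 and 73.9 CPM in other cells. *Tnfsf11*, which encodes RANKL, was at 125 and 270 CPM in members and 147 and 233 CPM in other cells. *Ifi214*, an interferon-inducible gene, was at 99.7 and 47.3 CPM in members and 104 and 28.6 CPM in other cells.

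**Figure D5:**
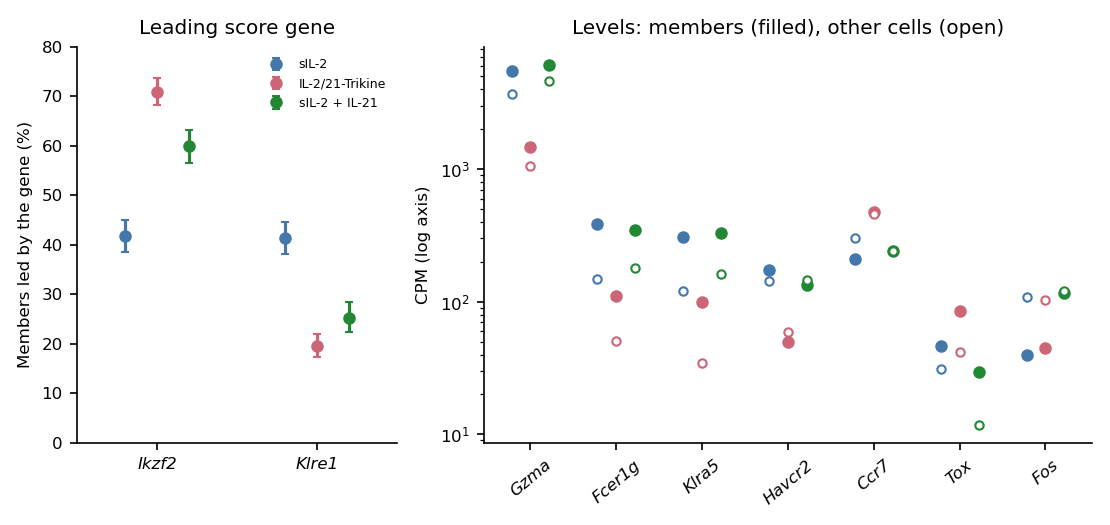
Left, percent of members in which *Ikzf2* or *Klre1* had the most score UMIs, with exact 95% binomial intervals that cover counting error only. Right, CPM (log axis) of 7 genes in members (filled) and other cells (open) of each library, in which *Gzma*, *Fcer1g* and *Klra5* are lowest and *Ccr7* and *Tox* highest with IL-2/21-Trikine in both kinds of cell.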

How the data were processed

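Single-cell libraries (10x 3' v3.1) were made from sorted intratumoral pmel T cells, 1 for each of 3 treatments. The deposited values are raw UMI counts, which the authors made with Cell Ranger Count, with intronic reads included and no normalization, for 33696 genes. The labels give the build mm10 and the methods the GRCm39 reference. The depth of the kept cells was 129886211, 165051207 and 167689133 UMIs in sIL-2, then in IL-2/21-Trikine, then in sIL-2 + IL-21. The members and the gene lists were chosen with earlier results of these data known.

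CPM are UMIs summed over the cells named and scaled to a common total. UMIs were summed per library over members and over other cells, and the 6 sums were tested with edgeR 4.0.16 (quasi-likelihood, TMM factors, library as a term) on genes of at least 5 CPM in at least 3 sums, without the score genes. SEs were taken from the fold change and the F statistic. Named genes were the 15 highest and 15 lowest called genes of at least 20 CPM with 1 direction in all libraries, without receptor segments, the 5 highest and 5 lowest ratios of each pair of libraries, and list genes. Other named genes were chosen after their values were seen. Exact binomial and Poisson intervals are at 95% and cover counting error only. Clusters came from 50 principal components, 20 neighbours and leidenalg 0.10.2 at resolution 1. Scrublet marked almost no cell, so doublets were kept, and the 5% of cells with the highest Scrublet score were left out as an alternative. The fit was checked on data with known changes. Alternatives covered the choice of members, depth, normalization (DESeq2 1.42.0, limma 3.58.1), filters and each library left out. The limits of the study, from 500 UMIs, leave 30857 cells. Promoters came from RefSeq (GRCm38.p6), which held 4 of the 7 genes looked up. The labels and the methods name different builds, so whether the files were made on this build is not known.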

Additional observations from a re-analysis of the deposited data

Results flagged for a closer look

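Interferon-stimulated genes stood out because their summed level in members over other cells went opposite ways in 2 libraries. The log2 ratio was -0.45 in the sIL-2 library, against 0.50 in the sIL-2 + IL-21 library. It was 0.017 with IL-2/21-Trikine. The most abundant gene of the list, *Ifi27l2a*, had ratios of -0.55 and 0.40 there, and of -0.00040 with IL-2/21-Trikine. *Ccnb1*, a cyclin of mitosis, went the other way, with ratios of 0.48 and -0.50, and of 0.33 with IL-2/21-Trikine. With 1 library per treatment these differences were not tested.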

How the results depend on the processing

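Against 634 calls, most choices of members, filters and tools gave 527 to 863 calls in all, not always of the same genes: thinned cells shared 167 of the 234 higher and 292 of the 400 lower ones. The 7 settings that moved the count by over 1.5 times were these. Leaving out cycling cells gave 982, leaving *Ikzf2* out of the score 985, only members led by *Klre1* 1109, the comparison with cells of no score UMI 2157, a filter of 10 UMIs over the 6 sums 1250 (of 18300 genes tested), leaving out cluster 5 335, and dropping the library term 178, where the spread between libraries enters the error. The choices of left-out score genes, leading genes, no score UMI and clusters were added after the data were seen. Leaving out each library gave 635 to 776 calls. Totals without TMM gave 339 higher and 328 lower and means per cell with limma 353 and 266, in place of 234 and 400. Of 77 genes followed, *Gzmk* reversed, to -0.22 without *Klre1* in the score and -0.34 in members led by *Ikzf2*. The cause was not tested. The score genes read in cells chosen by the other 4 kept fold changes of 0.58 to 2.05 (log2) in 25 alternatives.

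The share of members relative to the pooled share was highest with sIL-2 in 17 of 18 settings and with IL-2/21-Trikine without *Klre1*. It moved past its counting interval in the following. In sIL-2, then IL-2/21-Trikine, then sIL-2 + IL-21, they were 1.12, 0.824 and 1.12 without cycling cells, and 1.09, 1.08 and 0.819 from 500 UMIs. For sIL-2 and IL-2/21-Trikine they were 1.39 and 0.834 with each score gene divided by its mean, 1.57 and 0.675 without *Ikzf2*, and 1.005 and 1.07 without *Klre1*. Without cells of other types the IL-2/21-Trikine value was 0.89 and the sIL-2 + IL-21 value 1.01, and for sIL-2 + IL-21 0.951 with the top 20%. Genes past the fold when members of sIL-2 were set against those of sIL-2 + IL-21 were 8 by means per cell and 10 in thinned cells, in place of 5. Of 30 ratios between libraries, 18 moved in thinned cells, 12 by means per cell, 6 within bins of depth and 2 with TMM factors. Members and other cells were paired by library in the fit, with 178 calls without that pairing. Between treatments, no paired analysis was possible because each group has 1 library. Depth limits low genes: 8924 of 33696 genes passed the filter.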

Other observations

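*Abcb1a* and *Abcb1b*, which encode P-glycoprotein drug efflux pumps, were among several other pairs of called genes that lie next to each other. They were higher in members by 0.63 and 0.62 (log2, adjusted p = 0.00323 and 0.00166, edgeR). *Zbtb20*, a zinc finger factor of memory CD8+ T cells, was at 79.7, 93.6 and 68.0 CPM in members and 44.8, 50.7 and 34.0 CPM in other cells in sIL-2, then IL-2/21-Trikine, then sIL-2 + IL-21 (0.85, SE 0.06, adjusted p = 0.000326). These genes were chosen after their values were seen.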
